A study of Mus musculus with 18 samples.

Results

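Of 16892 genes with a value among the 20512 symbols measured by RNA-seq in mouse liver, 50 were chemokine or chemokine receptor genes, 32 of them ligands and 18 receptors. The members were all symbols of the systematic chemokine names (Ccl, Cxcl, Cx3cl or Xcl for ligands, Ccr, Cxcr or Cx3cr for receptors, each followed by a number) whose value was not 0 in every library. The pattern took in 56 symbols, and 6 of them were listed at 0 in every library: *Ccl19*, *Ccl21a*, *Ccl21b*, *Ccl21c*, *Ccl27b* and *Ccr8*. Several of these are near-identical copies, whose reads can be lost when a read matches more than 1 gene, so the listed 0 does not show that they were not expressed. *Cxcr7* is the older symbol of the atypical receptor gene *Ackr3*.

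The livers came from male wild type C57BL/6 mice in 3 groups of 6 libraries: mice fed a high fat diet (HFD) and given AC261066 in the drinking water (the HFD+AC261066 group), mice fed the HFD alone, and mice fed chow. AC261066 is a synthetic agonist selective for retinoic acid receptor β2, a nuclear receptor that retinoic acid activates. The diets lasted 4 months, with 60% of kcal from fat in the HFD and 13% in chow, from an age of 6 to 7 weeks. AC261066 was given for the last 2 months at 3 mg per 100 ml of water, and the water of every group held 0.2% DMSO, the vehicle, so the chow group was a vehicle group as well. Hepatocyte markers had the highest summed level of the cell types counted in every group. Each library was whole liver, and fewer cells of a type and less RNA per cell cannot be told apart in it.

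Chemokines are sorted by the spacing of their first cysteines into the CC (Ccl), CXC (Cxcl), CX3C (Cx3cl) and XC (Xcl) classes, and most signal through G protein-coupled receptors on leukocytes. Some, such as *Cxcl12*, are made at steady state and hold cells in place, and others are induced in inflammation and draw monocytes, neutrophils or T cells into a tissue. In the liver, Kupffer cells, sinusoidal endothelial cells, stellate cells and hepatocytes are all known sources of inflammatory chemokines, and the Ccl2-Ccr2 axis is known for bringing monocytes into the steatotic liver.

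The values are log2 expression values per gene and library, already levelled between batches by the authors. A mean log2 value of at least 2 was required for a test, and 32 of the 50 members passed, 20 ligands and 12 receptors. Just inside this minimum stood *Cxcl2*, with a mean of 2.13, and just outside it *Ccr10*, with 1.76. The 18 members under it were the receptors *Ccr10*, *Ccr3*, *Cxcr1*, *Ccr6*, *Ccr4* and *Ccr1l1* and the ligands *Xcl1*, *Ccl7*, *Ccl17*, *Cxcl5*, *Ccl12*, *Ccl11*, *Ccl8*, *Cxcl17*, *Ccl1*, *Ccl26*, *Cxcl3* and *Ccl20*, with means down to -3.97. They were not tested, so nothing is said of their response. From the lowest to the highest liver their log2 values spanned between 0.020 (*Cxcl3*) and 0.53 (*Ccr3*). After *Ccr10*, their highest means were those of *Ccr3* at 1.34, *Xcl1* at 1.24 and *Ccl7* at 1.198.

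Per kilobase of exon, the liver's chemokine RNA was led by ligands of the steady state. *Cxcl12*, the retention signal for cells that carry Cxcr4, had a mean log2 level per kb of 10.03 over the 18 livers. *Ccl9* (7.91) and *Ccl6* (7.57), rodent CC chemokines that act on Ccr1, came next on this per kb scale, followed by *Cxcl1* (7.05), a neutrophil attractant, *Cxcl16* (6.27), the ligand of Cxcr6, and *Cxcl9* (6.20), a ligand of Cxcr3. The monocyte receptor gene *Ccr2* stood at 2.27 per kb and its ligand gene *Ccl2* at 3.38. Ligands on the same stretch of chromosome differed widely: *Ccl9* and *Ccl6* lie within the same chromosome 11 cluster as *Ccl3* (2.74) and *Ccl4* (2.81). *Ccl25* had no single position in the annotation used and so no per kb level.

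HFD against chow asks what the diet alone did. Of the 32 tested members, 14 rose in HFD livers (43.8%), against 15.8% of all 13268 genes tested, and none was called lower, against 16.3% of all genes (limma, adjusted p under 0.1). At an unadjusted p under 0.05 15 were higher, against 18.4% of all genes, and 1, *Ccl9*, was lower, against 18.6%. The median log2 difference was 0.21 over the 32 members and 0.0060 over all genes tested, and 26 members had a positive difference, against 51.2% of all genes. The raised members were 10 of 20 ligands and 4 of 12 receptors. They included *Ccl2* and its receptor gene *Ccr2*, the Cxcr3 ligand genes *Cxcl9*, *Cxcl10* and *Cxcl11*, and *Ccl3*, *Ccl4* and *Ccl5*. Log2 differences were modest, between 0.20 for *Cxcl2* and 0.76 for *Cxcl10*. On the deposited scale low values lie close to the gene mean, so the difference of a member with a low level can be understated.

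**Figure D1:**
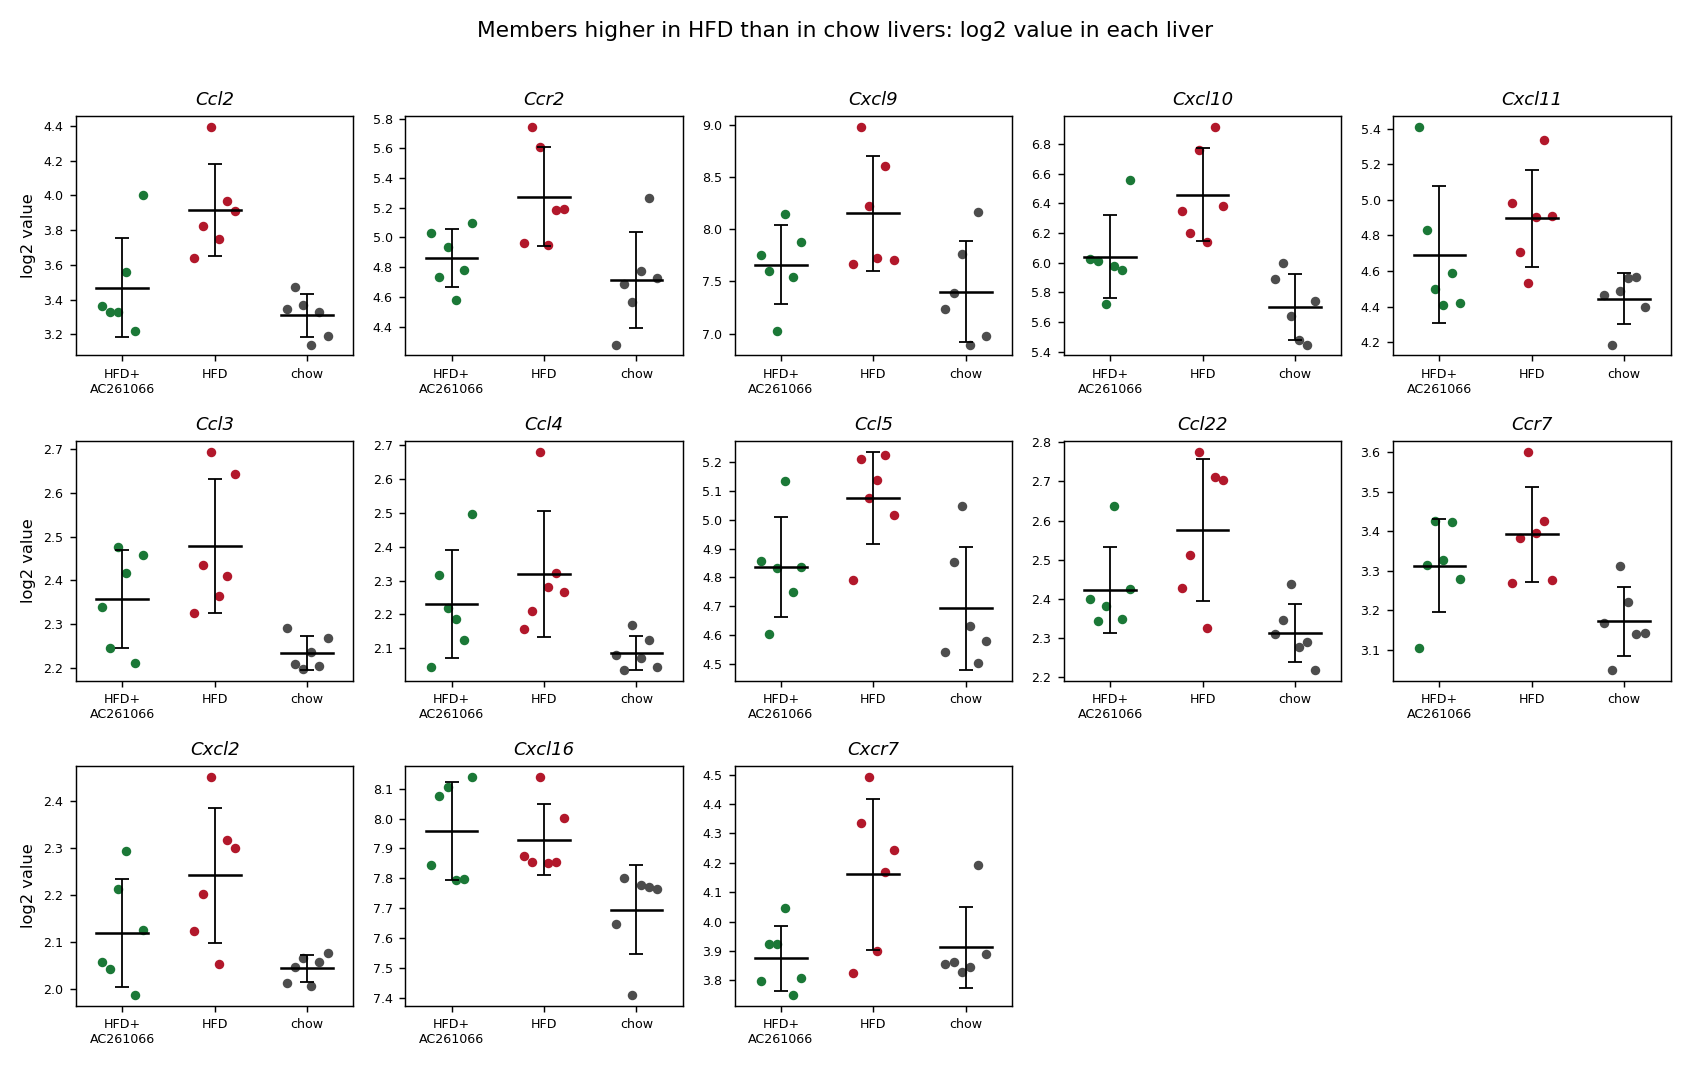
Log2 value (y axis) of 13 of the members higher in HFD than in chow livers, in each of the 6 livers of the HFD+AC261066, HFD and chow groups (points), with the group mean (line) and SD (bar). Each panel has its own y axis, which does not start at 0. In the *Ccl2* panel all 6 HFD livers, from 3.64 to 4.40, lie above all 6 chow livers, whose highest is 3.47.

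The monocyte axis was raised in both its ligand and its receptor. *Ccl2* (mm9 chr11:81849073-81850955, plus strand), whose protein attracts monocytes that carry Ccr2, had lowest, median and highest log2 values of 3.216, 3.35 and 4.003 in HFD+AC261066 livers, 3.64, 3.87 and 4.40 in HFD livers and 3.14, 3.34 and 3.47 in chow livers. Every HFD liver was above every chow liver, and the HFD minus chow difference was 0.61 ± 0.12 (SE; adjusted p = 0.00196), a 1.52-fold change. *Ccr2* (mm9 chr9:124016689-124028296) had log2 values of 4.58, 4.86 and 5.10 in HFD+AC261066 livers, 4.95, 5.19 and 5.75 in HFD livers and 4.28, 4.71 and 5.27 in chow livers. The HFD livers overlapped with the chow livers through 1 chow liver, chow 5, and the difference was 0.56 ± 0.15 (SE; adjusted p = 0.0127). Within libraries 1 to 3 it was 0.93 and within libraries 4 to 6 it was 0.19, a gap that did not pass its own test (interaction adjusted p = 0.332). The other known ligand genes of Ccr2, *Ccl7*, *Ccl8* and *Ccl12*, were under the minimum for a test.

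All members of the Cxcr3 ligand cluster on chromosome 5 (mm9 chr5:92750357-92794511) rose, while *Cxcr3* itself, the receptor gene of activated T and NK cells, did not pass the test. These ligands are induced by interferon gamma, and the *Cxcl11* gene of C57BL/6 mice is known not to give a functional protein. *Cxcl10* had log2 values of 5.72, 5.99 and 6.56 in HFD+AC261066 livers, 6.14, 6.37 and 6.92 in HFD livers and 5.45, 5.69 and 6.00 in chow livers. The HFD and chow livers did not overlap, and the difference of 0.76 ± 0.15 (SE; adjusted p = 0.00118) was the largest of any member, 1.69-fold. *Cxcl9* had log2 values of 7.02, 7.68 and 8.15 in HFD+AC261066 livers, 7.67, 7.97 and 8.98 in HFD livers and 6.89, 7.31 and 8.16 in chow livers. Its HFD livers were spread widely, with HFD 2 and HFD 5 the highest of all 18, and overlapped with chow 3 and chow 5. The difference was 0.75 ± 0.24 (SE; adjusted p = 0.032). *Cxcl11* had log2 values of 4.41, 4.54 and 5.41 in HFD+AC261066 livers, 4.53, 4.91 and 5.33 in HFD livers and 4.19, 4.48 and 4.57 in chow livers, with 1 of 6 HFD livers, HFD 3, inside the chow range, and a difference of 0.45 ± 0.15 (SE; adjusted p = 0.0343). *Cxcr3* had log2 values of 3.60, 3.74 and 3.88 in HFD livers, against 3.54, 3.77 and 3.87 in chow livers, and its difference of 0.015 ± 0.067 (SE; adjusted p = 0.897) had a 95% interval of -0.13 to 0.15. The *Cxcl11* call was lost with quantile normalization (adjusted p = 0.105), and the sign of the *Cxcr3* difference turned.

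The ligand genes *Ccl3*, *Ccl4* and *Ccl5* lie together on chromosome 11 (mm9 chr11:83339280-83478185), and their proteins attract monocytes and T cells. *Ccl5*, which T cells make in quantity, had log2 values of 4.79, 5.11 and 5.22 in HFD livers, against 4.50, 4.60 and 5.05 in chow livers, a difference of 0.38 ± 0.10 (SE; adjusted p = 0.0112). *Ccl3* had log2 values of 2.33, 2.42 and 2.69 in HFD livers, against 2.20, 2.22 and 2.29 in chow livers, with no overlap, and a difference of 0.25 ± 0.063 (SE; adjusted p = 0.00935). *Ccl4* differed by 0.23 ± 0.078 (SE; adjusted p = 0.0363), and its highest liver, HFD 3 at 2.68, stood apart from the other HFD livers, which ran from 2.16 to 2.32. The levels of *Ccl3* and *Ccl4* were close to the minimum for a test. *Ccr1*, a receptor gene for Ccl3 and Ccl5, had a difference of 0.036 ± 0.055 (SE; adjusted p = 0.678). In the same cluster, *Ccl9* and *Ccl6* were not called. *Ccl9* had log2 values of 9.03, 9.32 and 9.87 in HFD livers, against 9.38, 9.69 and 10.19 in chow livers, a difference of -0.39 ± 0.18 (SE; adjusted p = 0.121), and *Ccl6* had one of 0.11 ± 0.16 (SE; adjusted p = 0.669). The *Ccl9* difference did pass the test in 7 of 30 alternatives, the replicate block and the fit of HFD and chow libraries alone among them.

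Of the neutrophil attractants, *Cxcl2* was called and *Cxcl1* was not. *Cxcl2* had log2 values of 2.05, 2.25 and 2.45 in HFD livers, against 2.00, 2.05 and 2.08 in chow livers, with HFD 4 alone inside the chow range, and a difference of 0.20 ± 0.061 (SE; adjusted p = 0.0246). *Cxcl1* had log2 values of 6.70, 7.29 and 7.54 in HFD livers, against 5.80, 6.65 and 7.86 in chow livers, a difference of 0.53 ± 0.23 (SE; adjusted p = 0.104). Its highest value of all 18 livers was in chow 2, and without that library the difference was 0.76 with an adjusted p of 0.00517. *Cxcl1* passed the test in 7 of 30 alternatives, among them leaving out HFD 3 (adjusted p = 0.068), the replicate block (adjusted p = 0.0887) and equal medians (adjusted p = 0.0972). *Cxcr2*, the receptor gene for both, had a difference of 0.021 ± 0.088 (SE; adjusted p = 0.885), which changed sign with quantile normalization.

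The 250 bases before the start of *Cxcl10*, *Cxcl2* and *Cxcl1* are shown because *Cxcl10* had the largest difference and *Cxcl2* and *Cxcl1* are neighbours of which one was called. The sequences are from RefSeq, build GRCm38.p6, with capitals for matches on either strand to the NF-kB motif (GGG, 3 bases of any kind, TTCC) and to the interferon-stimulated response element, ISRE (GAAA, 2 bases of any kind, GAAA). NF-kB is a known inducer of these genes, and the interferon-activated factors are known inducers of *Cxcl10*.
Cxcl10 (GRCm38.p6 chr5:92348890-92349139, minus strand): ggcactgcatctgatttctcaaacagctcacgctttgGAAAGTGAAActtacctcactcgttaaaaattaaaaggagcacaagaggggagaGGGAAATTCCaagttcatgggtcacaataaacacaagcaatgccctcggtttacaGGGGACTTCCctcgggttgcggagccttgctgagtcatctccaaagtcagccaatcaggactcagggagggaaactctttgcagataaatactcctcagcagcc
Cxcl2 (GRCm38.p6 chr5:90903649-90903898, plus strand): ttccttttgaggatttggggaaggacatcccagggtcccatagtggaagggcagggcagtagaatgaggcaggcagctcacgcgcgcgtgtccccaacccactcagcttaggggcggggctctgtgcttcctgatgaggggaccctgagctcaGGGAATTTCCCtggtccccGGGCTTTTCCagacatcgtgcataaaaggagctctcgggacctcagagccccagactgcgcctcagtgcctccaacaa
Cxcl1 (GRCm38.p6 chr5:90890995-90891244, plus strand): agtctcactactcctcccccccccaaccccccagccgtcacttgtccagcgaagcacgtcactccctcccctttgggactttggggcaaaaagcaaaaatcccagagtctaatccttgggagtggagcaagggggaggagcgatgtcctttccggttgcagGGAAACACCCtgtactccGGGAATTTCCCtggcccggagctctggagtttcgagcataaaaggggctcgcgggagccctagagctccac
*Cxcl10* held an ISRE match 213 bases before the start and NF-kB matches 159 and 104 bases before it. *Cxcl2* and *Cxcl1* held the same 11 bases, with overlapping NF-kB matches on both strands that begin 97 and 71 bases before the start, and each held a further NF-kB match, at 78 and 89 bases. Of the 32 tested members, 23 had a promoter in the table, and 4 of these held the NF-kB motif (*Cxcl10*, *Cxcl2*, *Cxcl1* and *Ccl9*), against 4.65% of all 32851 promoters. The ISRE was in *Cxcl10* and *Cxcl14*, against 2.98% of all promoters, and the gamma-activated site (TTC, 3 bases of any kind, GAA) was in *Cxcl14* alone, against 7.02%. Among the 7 raised members with a promoter, 2 held the NF-kB motif. A match is a run of letters and says nothing of binding in these livers.

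Further raised members were *Ccl22*, *Ccr7*, *Cxcl16* and *Cxcr7*. *Ccl22*, a macrophage and dendritic cell product that draws regulatory T cells through Ccr4, had log2 values of 2.33, 2.61 and 2.78 in HFD livers, against 2.22, 2.30 and 2.44 in chow livers and a difference of 0.26 ± 0.071 (SE; adjusted p = 0.0125). *Ccr7*, which takes dendritic cells and T cells to lymph nodes, differed by 0.22 ± 0.065 (SE; adjusted p = 0.0202). Its ligand genes *Ccl19* and *Ccl21a*, *Ccl21b* and *Ccl21c* were among those listed at 0. *Cxcl16*, a membrane-bound ligand of Cxcr6, had log2 values of 7.85, 7.86 and 8.14 in HFD livers, against 7.41, 7.77 and 7.80 in chow livers, without overlap, and a difference of 0.23 ± 0.085 (SE; adjusted p = 0.0508), while *Cxcr6* differed by 0.15 ± 0.10 (SE; adjusted p = 0.28). The *Cxcl16* call was lost without chow 3 (adjusted p = 0.113) and without HFD 3 (adjusted p = 0.123). *Cxcr7*, a scavenging receptor of Cxcl12, had log2 values of 3.82, 4.21 and 4.49 in HFD livers, against 3.83, 3.86 and 4.19 in chow livers and a difference of 0.25 ± 0.10 (SE; adjusted p = 0.0731). Its call was the one of the 14 lost in the most alternatives, 15 of the 29 that tested it. Among these were leaving out chow 1, 2, 3, 4 or 6 or HFD 2, 3, 5 or 6 (adjusted p 0.107 to 0.179).

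The remaining steady-state and homing members did not pass the test in HFD against chow. *Cxcl12* had log2 values of 12.88, 12.99 and 13.06 in HFD livers, against 12.77, 13.07 and 13.27 in chow livers, and its difference of -0.058 ± 0.084 (SE; adjusted p = 0.656) had a 95% interval of -0.23 to 0.12. Its receptor gene *Cxcr4* differed by 0.18 ± 0.16 (SE; adjusted p = 0.416). *Cx3cr1*, the fractalkine receptor gene of monocytes and macrophages, differed by 0.28 ± 0.14 (SE; adjusted p = 0.141), and its ligand gene *Cx3cl1* by 0.080 ± 0.063 (SE; adjusted p = 0.376). *Cx3cr1* was called without chow 5 (adjusted p = 0.05) and without HFD 1 (adjusted p = 0.0228). *Cxcl13*, which guides B cells, differed by -0.20 ± 0.21 (SE; adjusted p = 0.51) and its receptor gene *Cxcr5* by -0.021 ± 0.058 (SE; adjusted p = 0.824). *Cxcl14* differed by 0.32 ± 0.35 (SE; adjusted p = 0.536). *Ccl24*, an eosinophil attractant, *Ccl25* and its receptor gene *Ccr9*, and *Ccl27a* had differences between -0.071 (*Ccr9*) and 0.046 (*Ccl27a*).

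**Figure D2:**
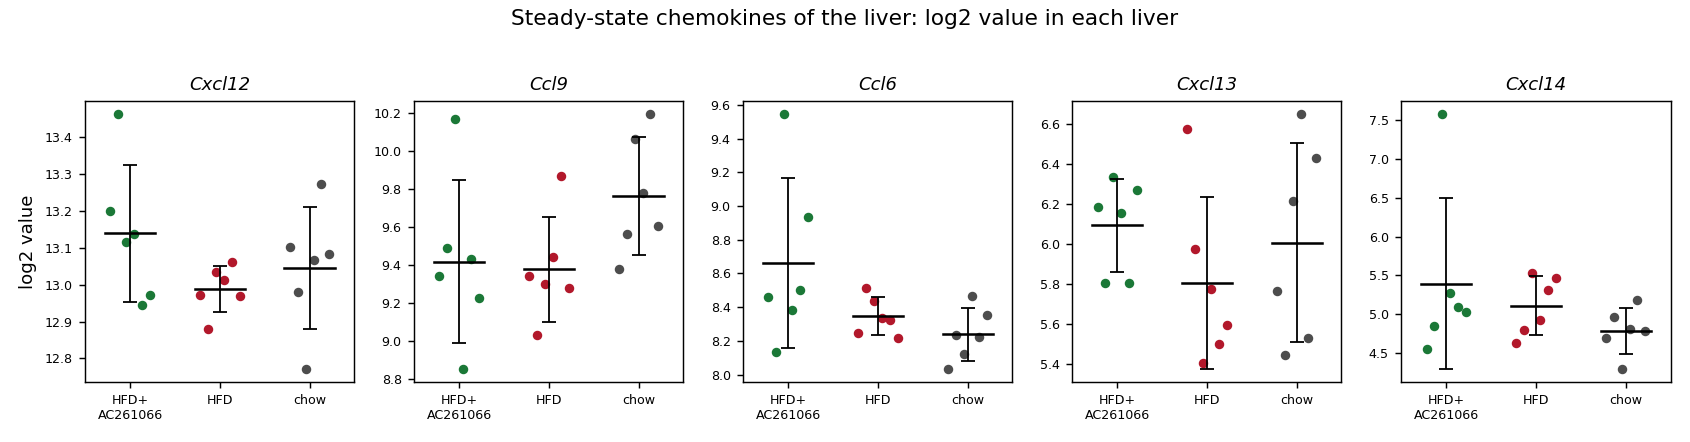
Log2 value (y axis, own scale in each panel, not starting at 0) of *Cxcl12*, *Ccl9*, *Ccl6*, *Cxcl13* and *Cxcl14* in each liver of the HFD+AC261066, HFD and chow groups (points), with the group mean (line) and SD (bar). The HFD+AC261066 liver at 9.55 for *Ccl6* and at 7.58 for *Cxcl14* is the same liver, HFD+AC261066 3.

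All 14 raised members were higher in HFD than in chow livers both among libraries numbered 1 to 3 and among those numbered 4 to 6, the sets that the authors levelled. The 14 were picked by the fit of these same libraries, so a shared direction in both sets is no separate evidence. Fitted alone, with 3 livers a group, libraries 1 to 3 gave 3 higher members (*Ccl2*, *Ccr2* and *Cxcl10*), against 3.6% of all genes, and libraries 4 to 6 gave 8, against 11.3%. No member's difference was itself called different between these sets in any comparison, and in HFD against chow 2 of 32 members (*Ccr2* and *Ccl25*) had an unadjusted interaction p under 0.05, against 10.9% of all genes. Of the 32 members, 4 had HFD and chow livers that did not overlap (*Ccl2*, *Ccl3*, *Cxcl10* and *Cxcl16*, all higher), against 4.18% of all genes, and none was lower without overlap, against 5.55%. The HFD livers were not alike. HFD 3 had the highest value of all 18 livers for 11 of the 32 members, and HFD 1 had the lowest value of its group for 14. Without HFD 3, 13 members were called higher, with *Cxcl16* and *Cxcr7* lost and *Cxcl1* gained. The summed linear level of the 14 stellate cell and fibroblast markers was also highest in HFD 3, at 12366, where HFD livers ran from 6529 to 12366 and chow livers from 5361 to 9532, and its part in these values was not tested. Of the 11 tested members with a mean log2 value under 4, 7 were called higher, against 14.5% of all genes at that level, and of the 21 at 4 or more, 7 were called, against 15.9%.

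**Figure D3:**
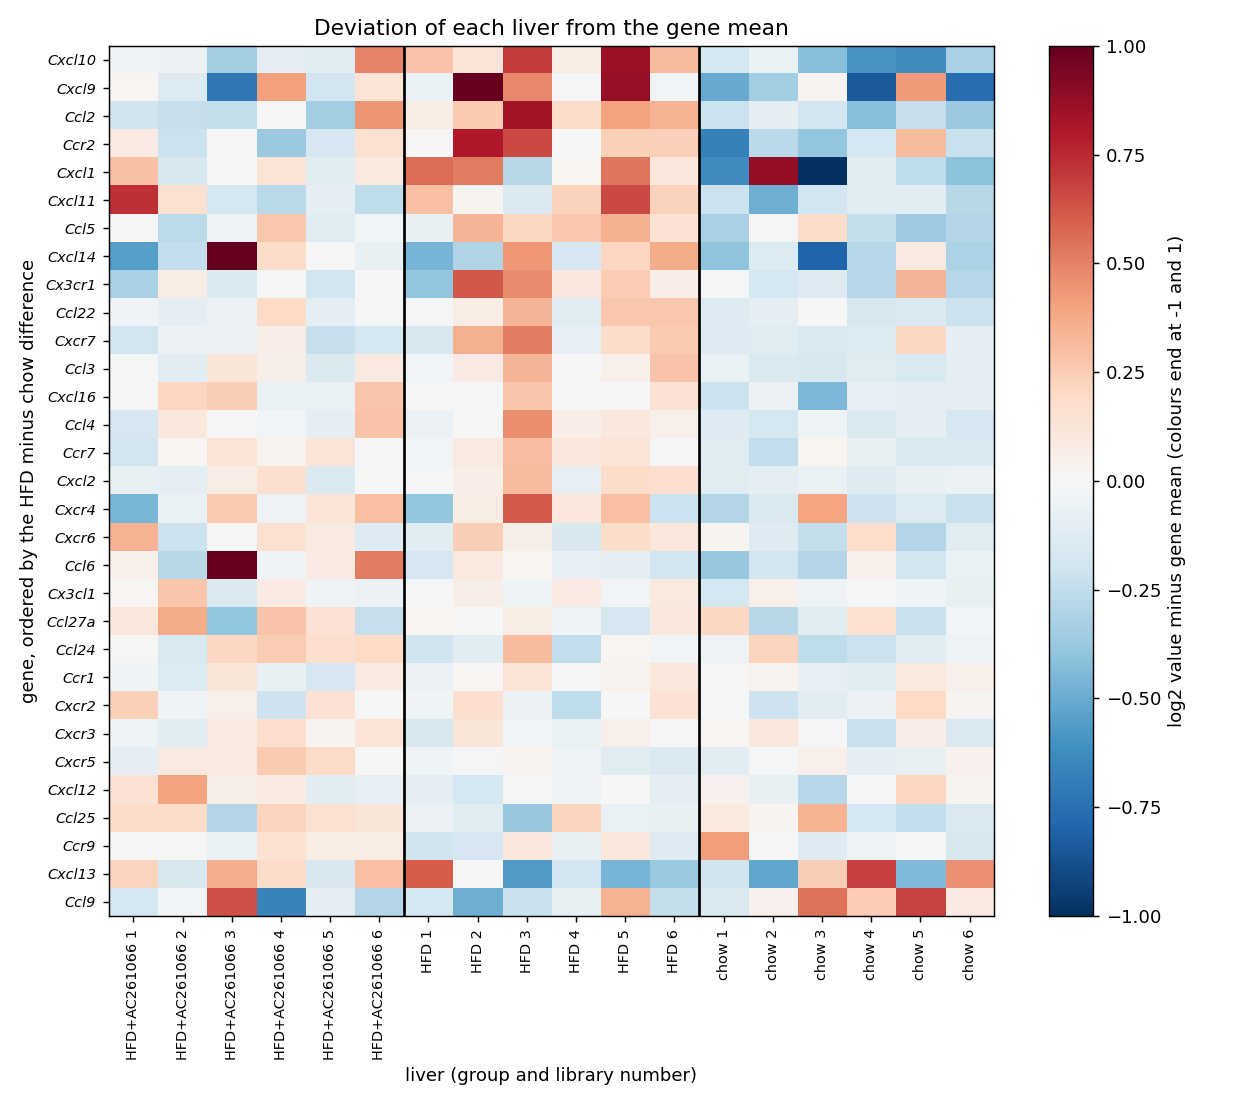
Deviation of each liver (x axis, grouped as HFD+AC261066, HFD and chow) from the mean of each of 31 tested members over the 18 livers (y axis, members ordered by the HFD minus chow difference), in log2 units, red above and blue below the mean. Colours end at -1 and 1. The column of HFD 3 is the deepest red for *Ccl2* and for the rows from *Ccl22* to *Cxcr4*, and blue for *Cxcl1* and *Cxcl11*. HFD 1 is pale or blue for most.

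Genes around the chemokine system were counted from lists of known components, with 15.8% of all genes higher and 16.3% lower in HFD livers. Of 43 genes of chemokine receptor signal transduction, 14 were higher and 2 lower, with a median log2 difference of 0.065. Among the higher were the leukocyte genes *Rac2*, *Vav1*, *Fgr* and *Dock2*. Of 18 tested inducers of inflammatory chemokines, 6 were higher (*Il1b*, *Tnf*, *Tlr2*, *Tlr3*, *Tlr9* and *Irak4*) and 1 lower (*Traf6*). *Il17a* and *Ifnb1* were listed at 0 in every library, and *Ifng*, *Il6*, *Csf2*, *Tnfsf11* and *Lta* were under the minimum and not tested. Of 18 transcription factors known to act at chemokine genes, 6 were higher, *Stat2*, *Nfkb1* and *Nfkb2* among them, and 3 were lower (*Rela*, *Nfkbia* and *Cebpb*). Of 17 other genes of the chemokine family outside the naming rule, 4 were higher (*Xcr1*, *Rarres2*, *Cmtm3* and *Mmp12*) and 2 lower (*Mif* and *Sdc1*).

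The marker genes of each cell type were counted in the same way. In HFD against chow, 6 of 12 dendritic cell markers, 5 of 14 monocyte markers and 4 of 16 Kupffer cell and macrophage markers were higher, against 15.8% of all genes, and none of these was lower. For T and NK cells the count was 2 of 14, for neutrophils 1 of 6 and for B cells 1 of 6, shares near that of all genes. The summed linear level of the Kupffer and macrophage markers ran from 19638 to 24868 in HFD livers and from 17123 to 21130 in chow livers, and that of the dendritic markers from 2475 to 4779 in HFD livers and from 2049 to 3459 in chow livers. The summed level of the monocyte markers had the lower median in HFD livers, at 158069 (148286 to 192189), against 176368 (120131 to 277347) in chow livers. A sum of linear levels follows the most abundant genes of its list. The monocyte list held *Hp* and *Fn1*, genes not confined to monocytes, so its sum is not a measure of monocytes. Gene by gene, the median log2 difference of these 14 markers was 0.16. Of 14 stellate and fibroblast markers 4 were higher, none of 7 cholangiocyte markers was called, 1 of 13 sinusoidal endothelial markers was lower and 5 of 9 hepatocyte markers were lower. The part of these cells in the chemokine values was not tested.

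HFD+AC261066 against HFD asks what the agonist did in mice on the diet. It shares its HFD livers with HFD against chow, so a high value in an HFD liver enters both, with opposite signs. One member, *Ccl2*, was called lower (1 of 32, 3.12%), against 2.25% of all genes, and none was called higher, against 2.13%. At an unadjusted p under 0.05, 7 members were lower and 1, *Cxcr5*, was higher, where 8.47% and 8.63% of all genes were. The median difference was -0.036 over the members and 5.2e-05 over all genes. The difference for *Ccl2* was -0.45 ± 0.12 (SE; adjusted p = 0.0668), 0.73-fold, with a 95% interval of -0.71 to -0.19. Of the 6 HFD+AC261066 livers, 5 were below every HFD liver, between 3.216 and 3.56, and HFD+AC261066 6, at 4.003, lay inside the HFD range.

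The *Ccl2* call was close to the threshold. It was kept with a batch term (adjusted p = 0.0904) and lost with the replicate number as a block (adjusted p = 0.117) and when only the HFD+AC261066 and HFD libraries were fitted (adjusted p = 0.117). It was also lost without HFD 3 (adjusted p = 0.141), HFD 5 (adjusted p = 0.12), HFD 6 (adjusted p = 0.102), HFD+AC261066 1 (adjusted p = 0.115), HFD+AC261066 3 (adjusted p = 0.114), HFD+AC261066 4 (adjusted p = 0.104) and HFD+AC261066 5 (adjusted p = 0.155). Over the 29 alternatives that tested *Ccl2* the adjusted p ran from 0.00881, without HFD+AC261066 6, to 0.325, within libraries 4 to 6. The direction stayed the same in these, with a difference of -0.61 within libraries 1 to 3 and -0.28 within libraries 4 to 6.

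Over all 32 members, 14 had a positive difference and 18 a negative one. For several members other than *Ccl2* the values are given with their errors, since a missed threshold does not show that groups were alike. *Ccr2* differed by -0.42 ± 0.15 (SE; adjusted p = 0.166), *Cxcl10* by -0.42 ± 0.15 (SE; adjusted p = 0.14) and *Cxcl9* by -0.49 ± 0.24 (SE; adjusted p = 0.308). *Cxcr7* differed by -0.29 ± 0.10 (SE; adjusted p = 0.136), *Cx3cr1* by -0.29 ± 0.14 (SE; adjusted p = 0.282) and *Ccl5* by -0.24 ± 0.10 (SE; adjusted p = 0.231). Some of these passed the test when a single liver was left out. *Cxcl10* was called lower without HFD+AC261066 6 (adjusted p = 0.0372), *Cxcr7* without HFD 1 (adjusted p = 0.0533) or HFD 4 (adjusted p = 0.0964) and *Cx3cr1* without HFD 1 (adjusted p = 0.0799). *Ccl22*, *Ccl3*, *Cxcl2*, *Ccl4*, *Ccr7* and *Cxcl11* had differences between -0.20 (*Cxcl11*) and -0.079 (*Ccr7*). *Cxcl16* differed by 0.030 ± 0.085 (SE; adjusted p = 0.893), *Cxcr5* by 0.14 ± 0.058 (SE; adjusted p = 0.205) and *Cxcl14* by 0.28 ± 0.35 (SE; adjusted p = 0.727). Without HFD+AC261066 3 the *Cxcl14* difference was -0.15 ± 0.17 (SE; adjusted p = 0.703). Of the ligands of the steady state, *Cxcl12* differed by 0.15 ± 0.084 (SE; adjusted p = 0.376), *Ccl6* by 0.31 ± 0.16 (SE; adjusted p = 0.333) and *Ccl9* by 0.040 ± 0.18 (SE; adjusted p = 0.933), the last with a sign that turned without HFD+AC261066 3. Without that library the *Ccl6* difference was 0.14 ± 0.11 (SE; adjusted p = 0.559). No member had HFD+AC261066 and HFD livers without overlap, where 0.95% of all genes were lower and 0.791% higher without overlap.

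In the surrounding lists, HFD+AC261066 against HFD gave few calls, where 2.13% of all genes were higher and 2.25% lower. None of the 18 transcription factors was called, 1 of 18 inducers (*Ifngr2*) was higher, 2 of 43 signal transduction genes were higher and 1 lower, and 1 of 17 other family genes (*Mmp12*) was lower. No marker of Kupffer cells, monocytes, neutrophils, T and NK cells or B cells was called at the adjusted p, out of 16, 14, 6, 14 and 6 tested. Of 12 dendritic cell markers 1 (*Flt3*) was lower, and their summed level had a median of 2800 (2225 to 4333) in HFD+AC261066 livers and of 3465 (2475 to 4779) in HFD livers. Of 14 stellate and fibroblast markers 4 were lower (*Col1a1*, *Col1a2*, *Col3a1* and *Pdgfrb*), with a summed level from 5652 to 7710 in HFD+AC261066 livers and from 6529 to 12366 in HFD livers. Of 13 sinusoidal endothelial markers 3 were higher. The part of these cells in the *Ccl2* value was not tested.

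**Figure D4:**
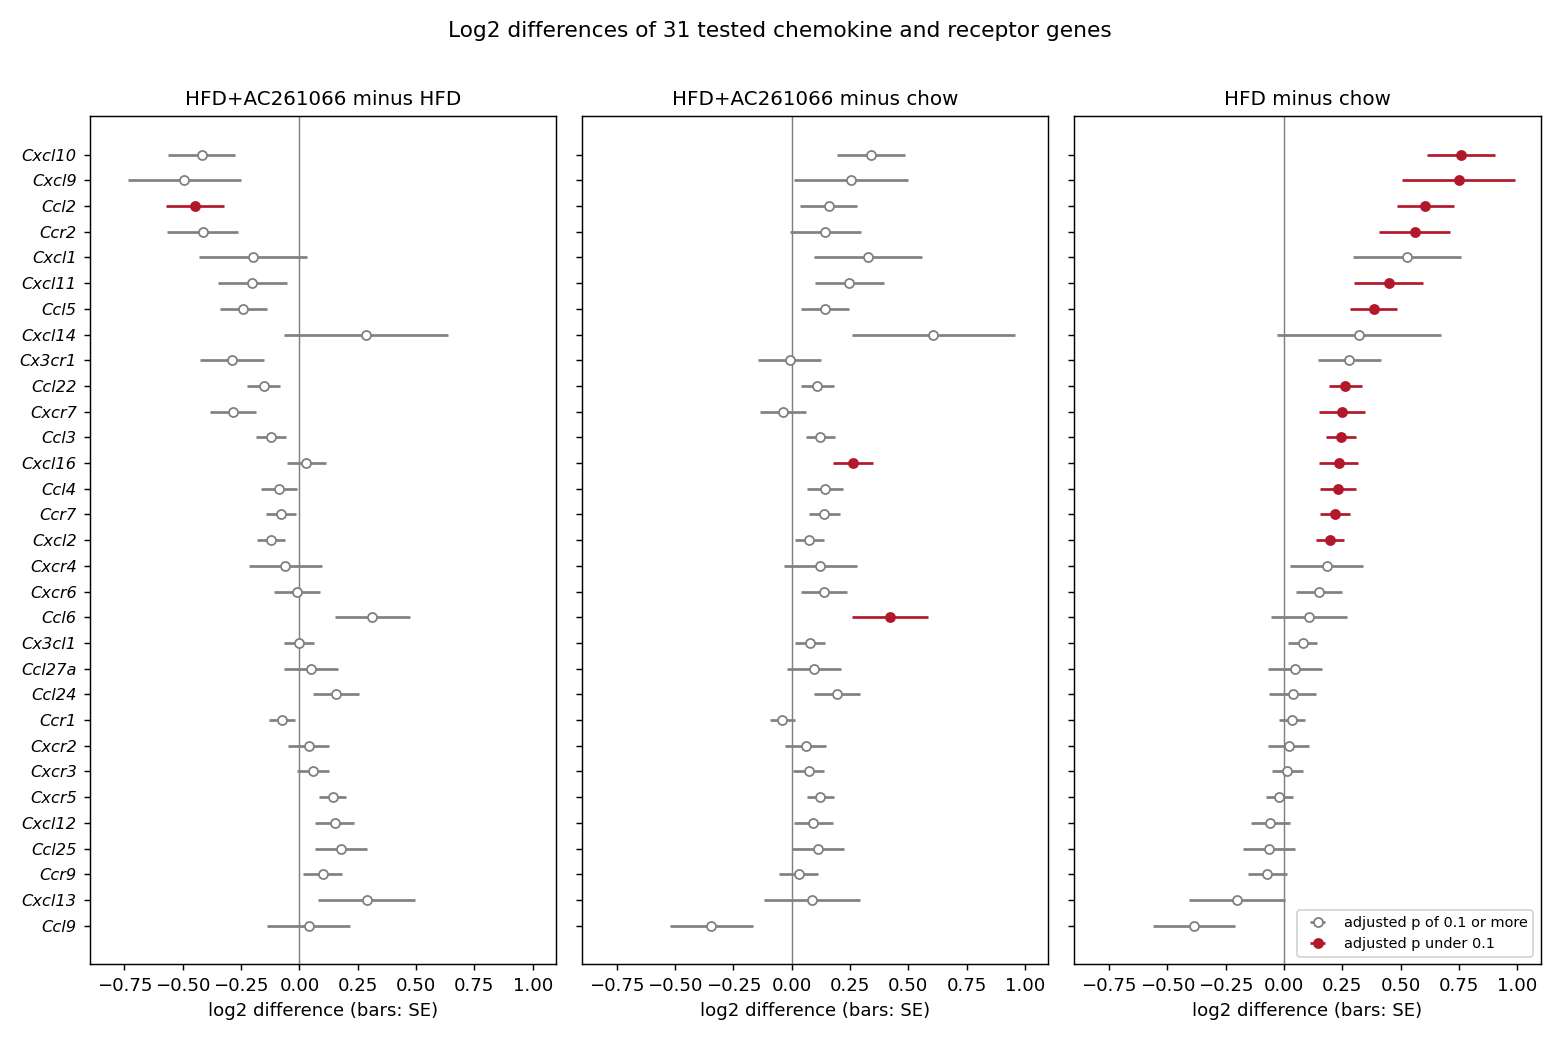
Log2 difference (x axis) with its SE (bar) of each of 31 tested members (y axis, ordered by HFD minus chow) for HFD+AC261066 minus HFD, HFD+AC261066 minus chow and HFD minus chow. Red filled points have an adjusted p under 0.1. There are 13 in HFD minus chow, 1 in HFD+AC261066 minus HFD (*Ccl2*) and 2 in HFD+AC261066 minus chow.

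HFD+AC261066 against chow asks what remained different from chow under diet and agonist together, and it shares its livers with both other comparisons. Of 32 members 3 were higher (9.38%), against 9.79% of all genes, and none was lower, against 9.89%; at an unadjusted p under 0.05, 6 members were higher, against 14.5% of all genes, and none was lower, against 14.4%. No member had livers without overlap in this comparison, where 1.67% of all genes were higher and 2.02% lower without overlap. Among these, *Cxcl16* was higher in HFD+AC261066 than in chow livers by 0.26 ± 0.085 (SE; adjusted p = 0.0479) and *Ccl6* by 0.42 ± 0.16 (SE; adjusted p = 0.0922). *Ccl6* had log2 values of 8.14, 8.48 and 9.55 in HFD+AC261066 livers, 8.22, 8.33 and 8.52 in HFD livers and 8.03, 8.23 and 8.47 in chow livers. Its highest liver was HFD+AC261066 3, and without that library the difference was 0.24 with an adjusted p of 0.134. The *Ccl6* call was lost in 22 of 30 alternatives, 13 of which left out a single library, and with a batch term its adjusted p was 0.112. The call of *Cxcl16* was lost in no alternative but the fits of libraries 1 to 3 or 4 to 6 alone, with 3 livers a group. *Ccl9* differed from chow by -0.35 ± 0.18 (SE; adjusted p = 0.205) and was not called. It was called lower without HFD+AC261066 3, at -0.495 ± 0.15 (SE; adjusted p = 0.0341), and in libraries 4 to 6 alone (adjusted p = 0.0324).

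For the members with the largest diet differences, the HFD+AC261066 minus chow values were 0.34 ± 0.15 (SE; adjusted p = 0.127) for *Cxcl10*, 0.26 ± 0.24 (SE; adjusted p = 0.517) for *Cxcl9*, 0.16 ± 0.12 (SE; adjusted p = 0.421) for *Ccl2* and 0.14 ± 0.15 (SE; adjusted p = 0.563) for *Ccr2*. None of these passed the test, and 4 of 30 alternatives called *Cxcl10* higher. *Cxcl14* had log2 values of 4.55, 5.06 and 7.58 in HFD+AC261066 livers, 4.63, 5.12 and 5.53 in HFD livers and 4.29, 4.80 and 5.18 in chow livers. The HFD+AC261066 value of 7.58 came from HFD+AC261066 3 alone, and the difference from chow was 0.61 ± 0.35 (SE; adjusted p = 0.263), or 0.17 ± 0.17 (SE; adjusted p = 0.536) without that liver. Kupffer cell and macrophage markers were higher in this comparison for 9 of 16 genes, against 9.79% of all genes. Their summed level ran from 19163 to 30912 in HFD+AC261066 livers and from 17123 to 21130 in chow livers. The highest was again HFD+AC261066 3. Of 6 B cell markers 4 were higher. The part of these cells in the values of *Cxcl16* and *Ccl6* was not tested.

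The members' responses were set beside their places in the genome (mm9). The Cxcl9, Cxcl10 and Cxcl11 cluster had 3 of 3 tested members higher in HFD than in chow livers, where 15.8% of all genes were, and the chromosome 11 cluster that holds *Ccl5*, *Ccl9*, *Ccl6*, *Ccl3* and *Ccl4* had 3 of 5. Of the cluster around *Ccl2* (chr11:81849073-82119192, with *Ccl7*, *Ccl11*, *Ccl12*, *Ccl8* and *Ccl1*), *Ccl2* alone was high enough to be tested. The cluster of *Cxcl5*, *Cxcl3*, *Cxcl1* and *Cxcl2* (chr5:91188325-91334935) had 2 tested members and 1 called. On chromosome 9, the receptor gene *Ccr2* was called and *Ccr1*, *Ccr9* and *Cxcr6* were not. On chromosome 8 (chr8:97269490-97335935), *Ccl22* was called and *Cx3cl1* was not.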

How the data were processed

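RNA-seq libraries of whole liver in 3 groups of 6 were used. The labels do not say that the libraries of a group came from separate mice, so p-values measure the spread between libraries. Per the submitters' processing notes, bcl2fastq 2.17, cutadapt, TopHat2 2.0.11, HTSeq 0.6.1 and DESeq2 1.6.3 were applied with build mm9, and per the study's methods reads of 51 bases (about 30000000 pairs a sample) were counted per gene and batch effects were removed with limma 3.22.7. The deposited values are log2 values per gene and library, and the transform is not given in the sources used here. The depth of each library is unknown from these values, and strand was not stated, so overlapping genes cannot be told apart. The means of libraries 1 to 3 and of libraries 4 to 6 were equal for every gene to within 4.6e-14, so these sets were taken as the 2 levelled batches.

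The 13268 of 16892 genes whose mean reached 2 on the log2 scale were fitted with limma 3.58.1 in R 4.3.3 (group means, all 18 libraries, eBayes with a trend, 15 residual degrees of freedom), and p-values were adjusted by Benjamini-Hochberg over all genes tested, with calls at an adjusted p under 0.1. No term for batch was fitted, and one is an alternative, with 14 degrees of freedom. The batch means had already been removed, so the main fit still counts the degree of freedom spent on them. Its SEs and p-values are therefore slightly too small. With the batch term the adjusted p of *Ccl6* in HFD+AC261066 against chow went from 0.0922 to 0.112. Fold changes are 2 to the power of the difference, on the scale of the deposited values. The code was tested on simulated data. Positions are those of GENCODE vM1 (mm9) for 49 members, levels per kb subtract the log2 exon length in kb, and promoters (35 of 50 members matched) are from RefSeq, GRCm38.p6. Some genes that enter the counts are not reported here by name. Other members called in HFD against chow or in HFD+AC261066 against HFD, their partners and the main liver chemokines are given with values, and the rest by range. The members and lists were chosen with earlier results of these data known. The alternatives were a batch term, the replicate number as a block, libraries 1 to 3 or 4 to 6 alone, no minimum, a minimum of 4, quantile normalization, equal medians, no trend, a fit of the compared pair of groups alone, a stricter threshold of 0.05 and leaving out each library. Leaving out HFD 3 and HFD+AC261066 3 together was added after seeing the data.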

Additional observations from a re-analysis of the deposited data

Results flagged for a closer look

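In each group of 6 livers, the highest and the lowest value of every tested member were set against the gap to the next liver by Dixon's criterion at the 95% level. Of 96 groups of values, 8 had a liver that stood apart, and chance gives about 1 in 20. *Cxcl14* stood at 7.58 in HFD+AC261066 3, where the other HFD+AC261066 livers lay between 4.55 and 5.28. *Ccl25* stood low in the same liver, at 5.51, against 5.93 to 6.03 in the others of its group. *Cxcl10* stood at 6.56 in HFD+AC261066 6, against 5.72 to 6.02, and *Ccl22* at 2.64 in HFD+AC261066 4, against 2.34 to 2.43. *Ccl4* stood at 2.68 in HFD 3, against 2.16 to 2.32 in the other HFD livers. In chow livers, *Cxcr4* stood at 4.91 in chow 3, against 4.23 to 4.38, *Cxcr7* at 4.19 in chow 5, against 3.83 to 3.89, and *Ccr9* at 3.84 in chow 1, against 3.26 to 3.42. No member's difference was called different between libraries 1 to 3 and libraries 4 to 6.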

How the results depend on the processing

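In HFD against chow, 14 members were called, and 3 remained with libraries 1 to 3 only, 8 were called with libraries 4 to 6 only and 8 of 21 tested with a minimum of 4, where 7 of the 14 fell below the minimum. In HFD+AC261066 against HFD the count of 1 (*Ccl2*) became 0 with the replicate block, with libraries 1 to 3 only, with only the 2 groups fitted, with a threshold of 0.05 and without libraries HFD 3 and HFD+AC261066 3 together. It was also 0 with a minimum of 4, under which *Ccl2* was not tested. With libraries 4 to 6 only, the single call was *Cxcl11*. Leaving out single libraries gave 0 to 3 calls, with 0 without HFD 3, 5 or 6 or HFD+AC261066 1, 3, 4 or 5, 2 without HFD 4 or HFD+AC261066 6 and 3 without HFD 1. In HFD+AC261066 against chow the count of 3 became 0 with libraries 1 to 3 only and 5 with libraries 4 to 6 only (4 higher and 1 lower), and 2 to 5 when single libraries were left out, with 5 without chow 2 or HFD+AC261066 1. The fits of libraries 1 to 3 or 4 to 6 and those with a library left out have fewer samples, and the cause was otherwise not tested. The calls of *Cxcl10* and *Ccl2* in HFD against chow held in every alternative that tested them.

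Same-numbered libraries did not deviate together: over 18 pairs the correlation of their deviations ran from -0.361 to 0.148 with a median of -0.105, and 2 pairs exceeded 0.1. The replicate block is given on that footing, and called 16 members in HFD against chow (15 higher and 1 lower, with *Cxcl1* and *Ccl9* added), 0 in HFD+AC261066 against HFD and 2 in HFD+AC261066 against chow.

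Some small differences changed sign. In HFD against chow this held with libraries 1 to 3 only for *Cxcl12* (0.010), *Cxcl13* (0.17), *Cxcr3* (-0.065) and *Cxcr5* (0.018), and with libraries 4 to 6 only for *Ccl6* (-0.054), *Ccl25* (0.22), *Cxcr2* (-0.091) and *Ccr9* (0.038). With quantile normalization it held for *Cxcl12* (0.014), *Ccl24* (-0.072), *Cxcr2* (-0.10), *Ccl27a* (-0.061), *Cx3cl1* (-6.0e-05), *Cxcr3* (-0.058) and *Ccr1* (-0.011), and without HFD 3 and HFD+AC261066 3 for *Ccl24* (-0.035). With single libraries left out, the difference ran from -0.12 to 0.010 for *Ccl25*, -0.035 to 0.097 for *Ccl24*, -0.014 to 0.071 for *Cxcr2*, -0.00021 to 0.098 for *Ccl27a*, -0.024 to 0.043 for *Cxcr3* and -0.11 to 0.010 for *Ccr9*. In HFD+AC261066 against HFD, *Cxcl11* was 0.17 with libraries 1 to 3 only, *Ccl9* was -0.36 with libraries 4 to 6 only and -0.13 without HFD 3 and HFD+AC261066 3, and with single libraries left out *Cxcl16* ran from -0.0061 to 0.072 and *Ccl9* from -0.11 to 0.15. In HFD+AC261066 against chow, values with libraries 1 to 3 only were -0.0015 for *Cxcl9*, -0.049 for *Ccl5*, 0.032 for *Cxcr7* and -0.057 for *Ccl2*, and with libraries 4 to 6 only -0.10 for *Ccr2* and -0.038 for *Cxcl11*. With single libraries left out *Cxcr7* ran from -0.073 to 0.018. None of these differences was called in the comparison and fit of all 18 libraries that it belongs to.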
